A study of Homo sapiens with 9 samples.

Results

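The mitochondrial genome is a small circular DNA held in many copies inside the mitochondria, outside the nucleus. It carries 37 genes: 13 encode proteins of the respiratory chain and ATP synthase, 2 encode the ribosomal RNAs (rRNAs) of the mitochondrial ribosome, and 22 encode transfer RNAs (tRNAs). These genes were taken as all rows of the deposited expression table whose symbol begins with MT-, which gave 37 of 60564 gene identifiers. RNA was sequenced from BxPC3 cells, an established human line of pancreatic ductal adenocarcinoma, grown in RPMI medium with fetal bovine serum. Cells received vehicle, small interfering RNA against STAT3 (STAT3 siRNA), or WB436B at 0.1 µM, a compound given by code name only, which made 3 groups. Each group had 3 libraries, labelled as biological replicates of a line with no genetic change stated. The sources used here give neither treatment times nor a non-targeting siRNA, and both treatments were compared with the same vehicle libraries.

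Mitochondrial DNA is transcribed from both strands into long RNAs that cover many genes. Most mRNAs and both rRNAs come from transcription that reads the heavy-strand template, and the opposite transcript carries MT-ND6 and a minority of the tRNAs. The tRNAs lie between the other genes, and their excision at both ends frees the mRNAs and rRNAs, which then receive poly(A) tails or short adenine additions and turn over at their own rates. Transcription needs the polymerase POLRMT with TFAM and TFB2M, and the LRPPRC-SLIRP complex keeps the mRNAs stable, all of them proteins encoded in the nucleus. STAT3 is mainly a nuclear transcription factor, and a mitochondrial pool of the protein has also been described.

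Sequences are shown for the members on which the results below turn, as GENCODE release 29 gives them for the same gene identifiers, 5′ to 3′ as the RNA reads. Of the tRNA genes, MT-TL1 and MT-TK had higher values under both treatments, MT-TV had lower values under both, and MT-TH had higher values under WB436B. Capitals mark the anticodon, the bases that pair with the codon. It was found by searching positions 25 to 45 of the gene, as written and not on the opposite strand, for the letter T, the known anticodon and then A or G, which gave exactly 1 match in 20 of the 22 tRNA genes.
MT-TL1 (leucine): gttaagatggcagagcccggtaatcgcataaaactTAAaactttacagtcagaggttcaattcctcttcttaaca
MT-TV (valine): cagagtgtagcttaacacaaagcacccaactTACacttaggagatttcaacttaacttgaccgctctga
MT-TK (lysine): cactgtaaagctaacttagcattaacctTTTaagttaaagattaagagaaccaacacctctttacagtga
MT-TH (histidine): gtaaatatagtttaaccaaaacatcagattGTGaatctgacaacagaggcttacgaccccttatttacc

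The genes MT-ATP8 and MT-ATP6, which encode the mitochondrially encoded subunits of ATP synthase, overlap. The last 100 bases of MT-ATP8 and the first 100 bases of MT-ATP6 are shown because the levels of these genes parted in an unusual way. Capitals mark the 46 bases that both genes hold, so a fragment inside that stretch belongs to either gene. MT-ND4L and MT-ND4 share 7 bases in the same way.
MT-ATP8 end: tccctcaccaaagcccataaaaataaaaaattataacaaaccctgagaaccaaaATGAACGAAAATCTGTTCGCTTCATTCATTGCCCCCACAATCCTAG
MT-ATP6 start: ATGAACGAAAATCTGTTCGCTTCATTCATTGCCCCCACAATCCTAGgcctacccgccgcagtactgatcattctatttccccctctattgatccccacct

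Values were in FPKM, fragments normalised for gene length and for each library's mapped fragments. Estimated depth was 14900000 to 47200000 fragments per library, and the first vehicle library was the deepest. STAT3 itself stood at 15.1 to 16.4 FPKM in the vehicle group, 2.58 to 3.02 FPKM after the siRNA and 10.5 to 10.9 FPKM under WB436B. All 7 ductal epithelium markers were expressed and not all were stable. KRT7, KRT8 and KRT18 rose under both treatments, while KRT19 and MUC1 fell. KRT19 stood at 684.6 to 732 FPKM under vehicle, 488.8 to 514.6 after the siRNA and 322 to 347 under WB436B, and MUC1 at 8.12 to 8.27, 1.499 to 1.90 and 1.64 to 2.08 FPKM. The leukocyte gene PTPRC and the stromal genes COL1A2 and DCN did not exceed 0.0268 FPKM in any library. Of 11 markers of immune, endothelial, stromal and acinar cells 3 passed the filter, CD68, COL1A1 and PRSS1, with CPA1 and CELA3A, further acinar genes, at or near 0. The summed level of the 11 was 7.61 to 8.92 FPKM in the vehicle group, 17.1 to 21.1 FPKM after the siRNA, of which PRSS1 held 12.1 to 13.9, and 4.03 to 4.28 FPKM under WB436B, and its part in the results below was not tested. Differences between groups were tested with limma on log2(FPKM + 1) over 12747 genes that reached 1 FPKM in 3 or more of the 9 libraries, all 37 mitochondrial genes among them. A gene is said to rise or fall where its Benjamini-Hochberg adjusted p, over all 12747 genes, was below 0.05, and each adjusted p of a gene below is from that fit. Since the labels do not name separate cultures, p-values cover the spread of these libraries, which may be technical.

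The share of mitochondrial transcripts in the FPKM total was lower in every treated library than in every vehicle library. All 37 genes together held 34.9, 38.1 and 38.4% of the FPKM total in the vehicle libraries. After STAT3 siRNA they held 32.5, 32.1 and 32.5%, and under WB436B 31.7, 32.5 and 31.6%. The mean difference from vehicle was -4.74 percentage points after the siRNA and -5.18 under WB436B, each with a two-sided exact permutation p of 0.1, the smallest that 3 against 3 libraries can give. In bulk RNA, fewer cells rich in these transcripts and less of them per cell cannot be told apart. More RNA from other genes would lower the share as well, and a share cannot tell it apart from either. FPKM outside the mitochondrial genome summed to 179294 to 186818 under vehicle, 186828 to 190589 after the siRNA and 184063 to 190076 under WB436B. Most of the difference lay in the mRNAs, and under WB436B the rRNA share was also below every vehicle library.

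The 13 protein-coding genes held 33.0 ± 1.83% (SD, n = 3) of the total under vehicle, 28.1 ± 0.109% after the siRNA and 28.1 ± 0.358% under WB436B. A large part of the spread under vehicle came from MT-ATP6, which is described below. With MT-ATP6 left out of the sum and of the total, a step chosen after its values were seen, the shares were 31.1 ± 0.566%, 27.7 ± 0.119% and 27.6 ± 0.336%. The difference from vehicle was then -3.43 percentage points after the siRNA and -3.48 under WB436B. The 2 rRNA genes held 1.55 ± 0.194% under vehicle, 1.60 ± 0.0974% after the siRNA (exact permutation p = 0.8, n = 3) and 1.32 ± 0.0457% under WB436B (exact permutation p = 0.1, n = 3). The 22 tRNA genes held 2.51 ± 0.0146%, 2.65 ± 0.0845% and 2.48 ± 0.146%. Their share after the siRNA was above that of every vehicle library (difference 0.136 percentage points), and that under WB436B overlapped vehicle. The siRNA difference did not hold in other forms: with MT-ATP6 left out the groups overlapped (exact permutation p = 0.3, n = 3), and relative to the FPKM total outside the mitochondrial genome it turned to -0.0813. FPKM divides by length, so short tRNA genes weigh heavily in it. Multiplying each FPKM by gene length gave an estimated mitochondrial share of mapped fragments, 9.21 ± 0.830% under vehicle, 7.69 ± 0.0896% after the siRNA and 7.53 ± 0.176% under WB436B. The estimate takes FPKM to use the full annotated length, which the sources used here do not state. On that scale the tRNA shares of vehicle and siRNA overlapped (exact permutation p = 0.7, n = 3).

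**Figure D1:**
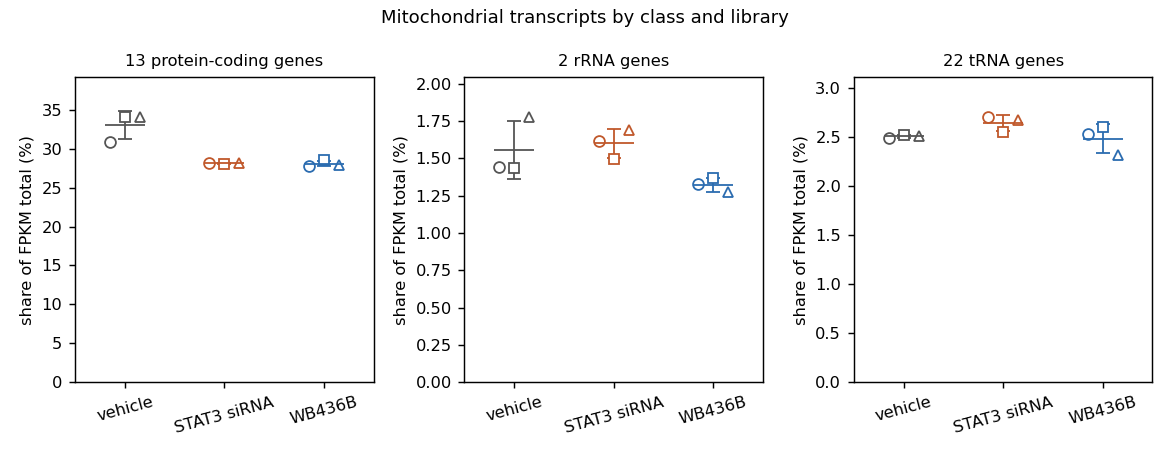
Share of each library's FPKM total (%, vertical axis from 0) held by the protein-coding, rRNA and tRNA genes of the mitochondrial genome. Each symbol is a library (circle, square and triangle for replicates 1, 2 and 3), the long bar is the group mean and the error bar the SD. The protein-coding share lies between 30.9 and 34.1% under vehicle and between 27.9 and 28.5% in the 6 treated libraries.

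The comparison with vehicle asks which mitochondrial transcripts change after STAT3 siRNA or under WB436B. After STAT3 siRNA, 5 of the 37 genes rose and 12 fell, against 29.8% of all tested genes that rose and 22.3% that fell. The median log2 difference was -0.15 over the 37 genes and 0.06 over all genes tested. Under WB436B, 6 rose and 15 fell, against 24.9% of all tested genes that rose and 41.1% that fell, with a median of -0.19 over the 37 genes and -0.13 over all. The share of mitochondrial genes that fell under WB436B was thus close to that of all genes. Median-of-ratios scaling, which sets the typical tested gene to no change, moved the median of all genes under WB436B from -0.13 to -0.000403 and the calls of all genes from 3168 higher and 5234 lower to 4219 and 4228. With that scaling 9 mitochondrial genes rose under WB436B and 3 fell, MT-TV, MT-ATP6 and MT-ND4L. After the siRNA 4 rose and 17 fell, against 3092 and 3275 of all 12747 tested genes. With no filter on low values 5 fell after the siRNA and 2 under WB436B, against 3359 and 7394 of the 36920 genes then tested. The calls of MT-CO1 and MT-CO2 were among those lost in both. Median-of-ratios scaling over all genes above 0 in every library left 1 that fell under WB436B, against 3577 of all 12747 tested genes. The call of MT-ND4L was lost when median-of-ratios scaling was joined with a block for replicate number. That of MT-ATP6 was lost in 8 of 22 alternatives. Decreases under WB436B other than that of MT-TV are therefore given below as decreases relative to the library total that FPKM uses.

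The protein-coding genes are taken by the complex to which their products belong, from the most abundant. Complex IV, cytochrome c oxidase, passes electrons to oxygen, and its catalytic core is made of the products of MT-CO1, MT-CO2 and MT-CO3. MT-CO1, the gene with the highest FPKM in all 9 libraries, stood at 15347, 16528 and 16338 FPKM under vehicle, 12974, 13111 and 12824 FPKM after the siRNA, and 13567, 13671 and 13435 FPKM under WB436B. Every treated library lay below every vehicle library. The log2 difference was -0.31 (SE 0.055, adjusted p = 0.0017) after the siRNA and -0.24 (adjusted p = 0.0041) under WB436B.

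MT-CO2 stood at 14276, 14892 and 15096 FPKM under vehicle, 10258, 10448 and 10366 FPKM after the siRNA, and 12476, 12082 and 11102 FPKM under WB436B. The groups formed 3 steps without overlap, with the siRNA lowest. It fell by 0.51 on the log2 scale after the siRNA (SE 0.062, adjusted p = 0.00021) and by 0.31 under WB436B (adjusted p = 0.0020), and was 0.20 higher under WB436B than after the siRNA (adjusted p = 0.021). The last call was lost in 9 of 22 alternatives, among them leaving out any siRNA library or WB436B replicate 1 or 2. MT-CO3 was called in neither comparison, at 8493 to 10270 FPKM in the vehicle group, 9135 to 9615 FPKM after the siRNA and 8738 to 9376 FPKM under WB436B. Its log2 differences from vehicle were 0.04 (adjusted p = 0.67) and -0.02 (adjusted p = 0.87). Quantile normalization keeps only the rank of a gene in its library, so it set the difference of MT-CO1, the highest, to 0 by construction. MT-CO2, the next highest mitochondrial gene in every library, had a difference of 0 for the same reason. With it MT-CO3 was called higher under WB436B (0.52, adjusted p = 0.048). In every library 9 or 10 of the 10 highest genes were mitochondrial, MT-ATP6 among them in vehicle replicates 2 and 3 only. Quantile results for such genes, here and below, follow these ranks and do not decide whether a level changed.

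Complex III, the cytochrome bc1 complex, takes electrons from ubiquinol, and MT-CYB encodes its cytochrome b. MT-CYB stood at 4522, 4757 and 4992 FPKM under vehicle, 3346, 3388 and 3517 FPKM after the siRNA, and 3901, 4091 and 3976 FPKM under WB436B. As for MT-CO2, the groups did not overlap and the siRNA group was lowest. The log2 difference was -0.48 (SE 0.054, adjusted p = 0.00014) after the siRNA and -0.25 (adjusted p = 0.0031) under WB436B. The direct comparison of WB436B with the siRNA gave 0.22 (adjusted p = 0.0062). With median-of-ratios scaling the difference under WB436B was -0.09 (adjusted p = 0.15), and with quantile normalization it changed sign to 0.27 (adjusted p = 0.040). Quantile normalization also ended the siRNA call (-0.14, adjusted p = 0.28).

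Complex I, the NADH dehydrogenase through which most electrons enter the chain, has 7 mitochondrially encoded subunits, and their genes did not move as a block. MT-ND1, a membrane subunit next to the ubiquinone site, rose after the siRNA. It stood at 2010, 2168 and 2445 FPKM under vehicle, 2852, 2804 and 2947 FPKM after the siRNA, and 2529, 2623 and 2384 FPKM under WB436B. The siRNA libraries all lay above vehicle, with a log2 difference of 0.38 (SE 0.076, adjusted p = 0.0030). Under WB436B it was 0.19 (adjusted p = 0.053), which passed the threshold when totals were equalised (0.26, adjusted p = 0.0015) or median-of-ratios scaling was used (0.35, adjusted p = 0.0028). MT-ND1 was the single protein-coding gene of the 13 that rose in either comparison with vehicle.

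MT-ND4L and MT-ND4, pump subunits read from a shared mRNA, fell under WB436B and not after the siRNA. MT-ND4L stood at 8804, 8952 and 7831 FPKM under vehicle, 9074, 9230 and 9215 FPKM after the siRNA, and 6582, 6776 and 6776 FPKM under WB436B. The siRNA libraries were the highest and the WB436B libraries the lowest. Its log2 difference was -0.34 under WB436B (SE 0.063, adjusted p = 0.0013) and 0.11 after the siRNA (adjusted p = 0.19). The direct difference between the treatments was -0.45 (adjusted p = 0.00029). MT-ND4 stood at 9590, 10532 and 10774 FPKM under vehicle, 9798, 9962 and 9974 FPKM after the siRNA, and 8153, 8550 and 8404 FPKM under WB436B, with the WB436B group below all other libraries. Its log2 differences were -0.30 under WB436B (adjusted p = 0.0023) and -0.05 after the siRNA (adjusted p = 0.49), and -0.24 between the treatments (adjusted p = 0.0069). With median-of-ratios scaling the difference under WB436B was -0.18 for MT-ND4L (adjusted p = 0.034) and -0.14 for MT-ND4 (adjusted p = 0.066), and quantile normalization turned that of MT-ND4L to 0.23 (adjusted p = 0.40) and ended its call between the treatments (-0.05, adjusted p = 0.86).

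MT-ND5, the largest pump subunit, fell under both treatments. It stood at 3145, 3256 and 3209 FPKM under vehicle, 2685, 2615 and 2658 FPKM after the siRNA, and 2721, 2870 and 2848 FPKM under WB436B, with no overlap between vehicle and treated libraries. The log2 differences were -0.27 (SE 0.044, adjusted p = 0.0011) and -0.19 (adjusted p = 0.0054). The latter was -0.03 with median-of-ratios scaling (adjusted p = 0.63) and 0.18 with quantile normalization (adjusted p = 0.043), a change of sign. MT-ND6, the single protein-coding gene of the opposite strand, stood at 2095, 2411 and 2974 FPKM under vehicle and at 1868, 1665 and 1953 FPKM after the siRNA, a log2 difference of -0.44 (SE 0.13, adjusted p = 0.018) that was not called without siRNA replicate 2. Under WB436B it stood at 2193, 2267 and 1980 FPKM, which overlapped vehicle, with a difference of -0.20 (adjusted p = 0.18). Whether the libraries kept the strand is not stated, and without strand the RNA of MT-ND6 cannot be told apart from RNA of the other strand over the same stretch.

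MT-ND2 and MT-ND3 passed the test in neither comparison with vehicle. MT-ND2 ranged from 2605 to 3258 FPKM over all libraries, with log2 differences of -0.08 and -0.09. MT-ND3 ranged from 1096 to 1951 FPKM and varied within every group, with an SE of 0.19 on its differences of -0.14 and -0.19. In all, 1 of the 7 complex I genes rose and 2 fell after the siRNA, and 3 fell and none rose under WB436B. Among all 13 protein-coding genes 1 rose and 7 (53.8%) fell after the siRNA. Under WB436B 7 (53.8%) fell and none rose, where 1 was higher at an unadjusted p below 0.05 in limma. Of all tested genes 29.8% rose and 22.3% fell after the siRNA, and 24.9% rose and 41.1% fell under WB436B. MT-ATP6, whose libraries are described below, is among the genes that fell in both.

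**Figure D2:**
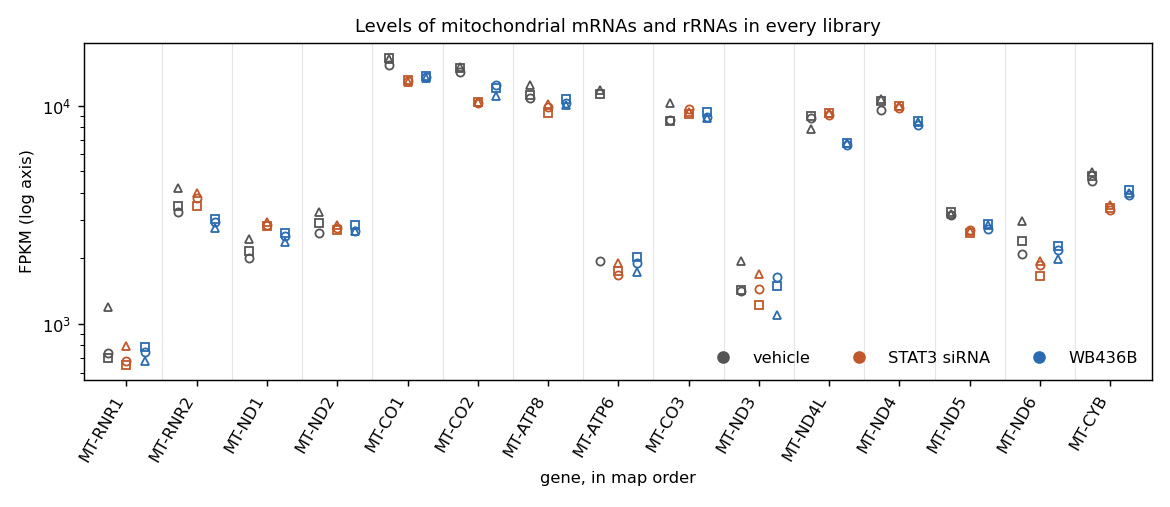
FPKM (log axis) of the 2 rRNA and 13 protein-coding genes in map order, for every library. Colours give the group and symbols the replicate (circle 1, square 2, triangle 3). MT-CO1 and MT-CO2 are lower in all treated libraries, MT-ND4L and MT-ND4 are lowest under WB436B, and MT-ATP6 in the first vehicle library lies with the treated libraries.

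MT-ATP6 encodes the membrane subunit of ATP synthase through which protons pass, and MT-ATP8 a small partner of it in the same complex. MT-ATP8 stood at 10792, 11189 and 12392 FPKM under vehicle, 9817, 9282 and 10218 FPKM after the siRNA, and 10326, 10694 and 10070 FPKM under WB436B. Its log2 differences were -0.23 (adjusted p = 0.025) after the siRNA and -0.14 (adjusted p = 0.11) under WB436B. The siRNA call was lost in 8 of 22 alternatives, among them quantile normalization, the replicate block and leaving out vehicle replicate 2 or 3 or siRNA replicate 1 or 2. With quantile normalization its difference was 0, since that method keeps ranks only. MT-ATP6 stood at 1953, 11352 and 11784 FPKM under vehicle, at 1684, 1752 and 1899 FPKM after the siRNA, and at 1908, 2037 and 1739 FPKM under WB436B. A pair of vehicle libraries was thus high, and the other vehicle library, the deepest of all, sat within the range of the treated libraries.

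Per 100 FPKM of MT-ATP8 there were 18.1, 101 and 95.1 FPKM of MT-ATP6 in the vehicle libraries, and between 17.2 and 19.0 FPKM in the 6 treated libraries. The fit called the decrease of MT-ATP6 at -1.85 (SE 0.60, adjusted p = 0.030) after the siRNA and at -1.76 (SE 0.60, adjusted p = 0.029) under WB436B. These calls rested on the replicates kept. Without vehicle replicate 2 the values were -1.43 (adjusted p = 0.098) and -1.34 (adjusted p = 0.097), without vehicle replicate 3 they were -1.41 (adjusted p = 0.096) and -1.32 (adjusted p = 0.097), and without vehicle replicate 1 they were -2.70 (adjusted p = 2.2e-06) and -2.61 (adjusted p = 1.1e-06). The 46 shared bases printed above are assigned by a rule that the sources used here do not give, and their part in the split was not tested. MT-ATP6 is therefore given by its values in each library, and its mean is not used further.

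**Figure D3:**
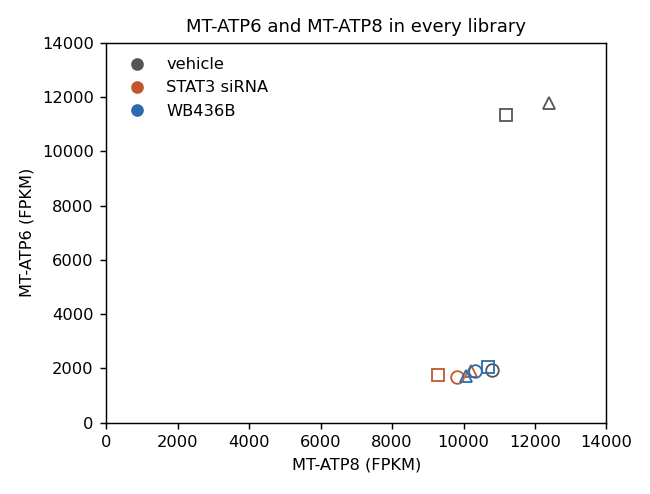
MT-ATP6 (vertical axis, FPKM) against MT-ATP8 (horizontal axis, FPKM) in each of the 9 libraries, both axes from 0. Vehicle replicates 2 and 3 (square and triangle) lie at 11352 and 11784 FPKM of MT-ATP6, and the other 7 libraries between 1684 and 2037 FPKM.

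The rRNA genes MT-RNR1 and MT-RNR2 encode the RNAs of the small and the large subunit of the mitochondrial ribosome, and are read first on their transcript. MT-RNR2 stood at 3245, 3469 and 4200 FPKM under vehicle, 3792, 3488 and 3991 FPKM after the siRNA, and 2944, 3022 and 2751 FPKM under WB436B. The WB436B libraries were below all others, while the siRNA and vehicle libraries overlapped. The log2 difference was 0.05 after the siRNA (adjusted p = 0.68) and -0.32 under WB436B (SE 0.10, adjusted p = 0.021), and -0.37 between the treatments (adjusted p = 0.011). With median-of-ratios scaling the call under WB436B (-0.15, adjusted p = 0.20) and that between the treatments (-0.14, adjusted p = 0.26) were lost. Quantile normalization turned the sign under WB436B (0.043, adjusted p = 0.49) and called a rise after the siRNA (0.50, adjusted p = 7.7e-05). The WB436B call was also lost without WB436B replicate 3. MT-RNR1 stood at 736, 700.0 and 1192 FPKM under vehicle, 679, 649.8 and 789.8 FPKM after the siRNA, and 748, 782 and 680.1 FPKM under WB436B, and passed the test in no comparison. The ratio of MT-RNR2 to MT-RNR1 was 4.30 ± 0.722 under vehicle, 5.33 ± 0.266 after the siRNA and 3.95 ± 0.0914 under WB436B. Selection by poly(A) tail or depletion of rRNA is not stated in the sources used here. In the RNA polymerase III transcripts RN7SL1 and RN7SL2, which carry no such tail, levels ranged from 10.1 to 122 FPKM and from 9.89 to 178 FPKM over the libraries, with spread inside each group. Among other RNAs that mostly lack such a tail, histone genes summed to 272 to 293 FPKM under vehicle, 178 to 197 after the siRNA and 205 to 244 under WB436B, lower in every treated library as the mitochondrial share was. Small nucleolar RNA genes (SNORD symbols) summed to 243 to 259 FPKM in the vehicle group, 244 to 258 after the siRNA and 194 to 219 under WB436B. Their part in the results was not tested.

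The tRNA genes spanned from 1.22 to 1595 FPKM, and they are 59 to 75 bases long. Whether fragments on a gene this short come from the mature tRNA, from a precursor or from a neighbouring RNA was not tested. The lowest was MT-TS1, at 1.22 to 4.20 FPKM, which in its poorest library rests on an estimated 1.37 fragments. MT-TF, MT-TW, MT-TQ, MT-TM and MT-TD stood at 4.81 to 19.8 FPKM. In their poorest libraries they rest on an estimated 5.61, 7.07, 8.19, 15.4 and 11.1 fragments. The highest were the 4 adjoining genes MT-TA, MT-TN, MT-TC and MT-TY, at 660.2 to 1595 FPKM. After the siRNA 4 tRNA genes (18.2%) rose and 5 (22.7%) fell, against 29.8 and 22.3% of all tested genes. Under WB436B 6 (27.3%) rose and 7 (31.8%) fell, against 24.9 and 41.1%, so that the counts themselves do not set these genes apart. Their order on the genome is followed here.

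**Figure D4:**
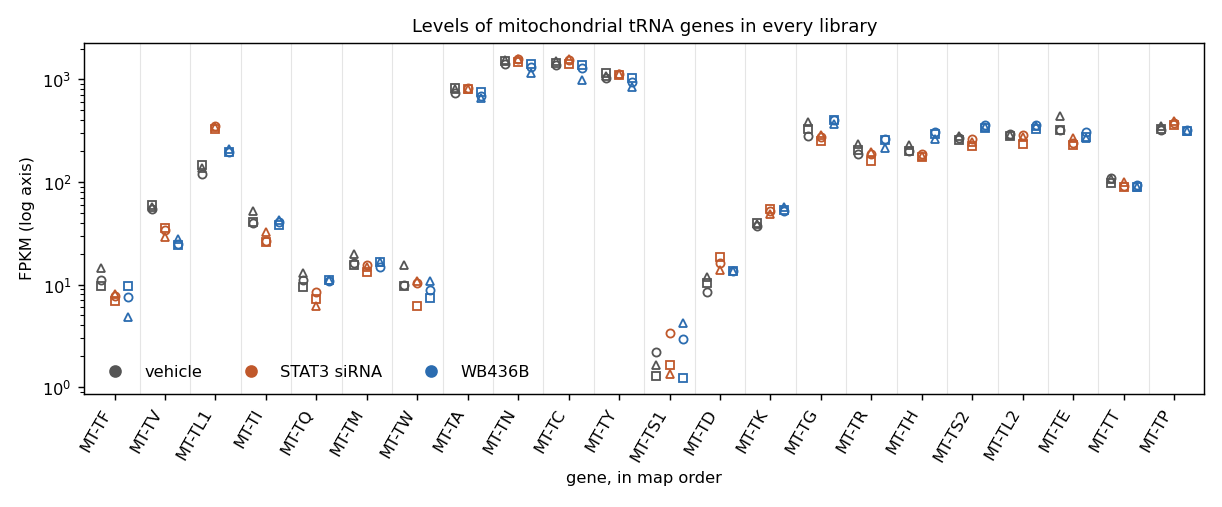
FPKM (log axis) of the 22 tRNA genes in map order for every library, with colours for the group and symbols for the replicate (circle 1, square 2, triangle 3). MT-TL1 is highest after STAT3 siRNA, MT-TV is lower in all treated libraries, and MT-TH, MT-TS2 and MT-TL2 are highest under WB436B.

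MT-TL1, the leucine tRNA that follows the rRNA genes, showed the largest rise among the 37 genes. Its gene contains the site to which the termination factor MTERF1 binds. It stood at 119.5, 148 and 138 FPKM under vehicle, 349.5, 332 and 343 FPKM after the siRNA, and 198, 196 and 208 FPKM under WB436B. The groups formed 3 separate steps, with vehicle lowest and the siRNA highest. On the log2 scale the difference was 1.34 after the siRNA (SE 0.073, adjusted p = 2.7e-06), 0.57 under WB436B (adjusted p = 0.00015), and -0.77 between the treatments (adjusted p = 3.1e-05). All 3 calls held under every alternative that was run. Per 100 FPKM of the next gene, MT-ND1, there were 6.13 ± 0.607 FPKM of MT-TL1 under vehicle, 11.9 ± 0.314 FPKM after the siRNA and 7.996 ± 0.639 FPKM under WB436B (exact permutation p = 0.1, n = 3, against vehicle in each case). MT-ND1 in turn stood at 75.7 ± 1.25, 104 ± 0.261 and 91.8 ± 2.70 FPKM per 100 FPKM of MT-ND2, with no overlap between groups.

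MT-TV, the valine tRNA between both rRNA genes, moved the other way. It stood at 54.0, 59.97 and 56.7 FPKM under vehicle, 34.2, 35.6 and 28.9 FPKM after the siRNA, and 24.9, 24.2 and 27.9 FPKM under WB436B. The siRNA libraries lay below vehicle, and the WB436B libraries below those of the siRNA. The log2 difference was -0.77 after the siRNA (SE 0.086, adjusted p = 0.00013) and -1.12 under WB436B (adjusted p = 7.2e-06), and both calls held under every alternative. MT-TF, the phenylalanine tRNA at the head of the same transcript, stood at 9.71 to 14.4 FPKM in the vehicle group, 6.85 to 8.16 FPKM after the siRNA and 4.81 to 9.57 FPKM under WB436B. It fell under WB436B (-0.64, SE 0.21, adjusted p = 0.027), a call lost in 9 of 22 alternatives, and missed the threshold after the siRNA (-0.55, adjusted p = 0.057), where 6 alternatives called it.

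Between MT-ND1 and MT-ND2 lie the tRNA genes MT-TI, MT-TQ and MT-TM, for isoleucine, glutamine and methionine. MT-TI stood at 39.9, 40.8 and 51.6 FPKM under vehicle, 26.3, 26.1 and 32.2 FPKM after the siRNA, and 40.3, 38.0 and 42.5 FPKM under WB436B. The siRNA libraries alone were low. Its log2 difference was -0.62 after the siRNA (SE 0.11, adjusted p = 0.0020), -0.12 under WB436B (adjusted p = 0.37) and 0.50 between the treatments (adjusted p = 0.0044). MT-TQ, on the opposite strand, showed -0.56 after the siRNA (adjusted p = 0.0046) and -0.01 under WB436B (adjusted p = 0.95), with 0.55 between the treatments (adjusted p = 0.0037). MT-TM passed the test in no comparison, although 3 alternatives called it lower after the siRNA and 2 higher under WB436B than after the siRNA.

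The 4 opposite-strand genes MT-TA, MT-TN, MT-TC and MT-TY, for alanine, asparagine, cysteine and tyrosine, had log2 differences between 0.04 and 0.07 after the siRNA and none was called. MT-TN stood at 1409, 1525 and 1563 FPKM under vehicle, 1575, 1489 and 1595 FPKM after the siRNA, and 1334, 1412 and 1155 FPKM under WB436B, with WB436B and vehicle overlapping. Its log2 difference under WB436B was -0.21 (adjusted p = 0.045). MT-TA (-0.17, adjusted p = 0.049) and MT-TY (-0.22, adjusted p = 0.026) were called as well, and MT-TC (-0.26, adjusted p = 0.076) was not. All 4 were near the threshold, the calls of MT-TA, MT-TN and MT-TY were lost in 15, 14 and 11 of 22 alternatives, and with median-of-ratios scaling the differences under WB436B were between -0.10 and -0.01 and none was called. MT-TW, the tryptophan tRNA beside them on the other strand, passed the test in no comparison in this fit.

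Between MT-CO1 and MT-ATP8 lie MT-TS1, MT-TD and MT-TK. MT-TD, for aspartate, stood at 8.401, 10.4 and 11.7 FPKM under vehicle, 16.1, 18.6 and 13.9 FPKM after the siRNA, and 13.7, 13.7 and 13.5 FPKM under WB436B. It rose by 0.62 after the siRNA (SE 0.12, adjusted p = 0.0031) and by 0.40 under WB436B (adjusted p = 0.020), the latter not called without vehicle replicate 1 or without WB436B replicate 1 or 2. MT-TK, for lysine, stood at 37.3, 39.5 and 39.0 FPKM under vehicle, 52.4, 54.2 and 48.5 FPKM after the siRNA, and 52.5, 53.4 and 57.4 FPKM under WB436B. Both treated groups were above vehicle and overlapped each other. The log2 differences were 0.41 (SE 0.055, adjusted p = 0.00035) and 0.48 (adjusted p = 7.2e-05), and both held under every alternative. MT-CO2, which lies between MT-TD and MT-TK, fell in the same comparisons.

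The run MT-TH, MT-TS2 and MT-TL2, for histidine, serine and leucine, lies between MT-ND4 and MT-ND5, and all 3 rose under WB436B. MT-TH stood at 199.9, 199 and 227 FPKM under vehicle, 188, 176 and 179 FPKM after the siRNA, and 304, 296 and 263 FPKM under WB436B. The WB436B libraries were above all others. The difference was 0.46 under WB436B (SE 0.072, adjusted p = 0.00052), -0.20 after the siRNA (adjusted p = 0.045) and 0.66 between the treatments (adjusted p = 6.9e-05). The call after the siRNA was lost in 12 of 22 alternatives, among them equal totals (-0.15, adjusted p = 0.060) and leaving out any vehicle or siRNA library. MT-TS2 stood at 257 to 281 FPKM in the vehicle group, 224 to 259.6 FPKM after the siRNA and 339.8 to 363 FPKM under WB436B, a rise of 0.37 (adjusted p = 0.00085). MT-TL2 stood at 282 to 297 FPKM in the vehicle group, 237 to 286 FPKM after the siRNA and 331 to 360.3 FPKM under WB436B, a rise of 0.27 (adjusted p = 0.010) that quantile normalization ended (0.13, adjusted p = 0.13). Per 100 FPKM of MT-ND4, the mRNA just before them, there were 2.03 ± 0.119, 1.83 ± 0.0827 and 3.44 ± 0.303 FPKM of MT-TH under vehicle, after the siRNA and under WB436B.

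MT-TG and MT-TR, for glycine and arginine, flank MT-ND3. Neither was called against vehicle, where MT-TG had -0.28 after the siRNA (adjusted p = 0.051) and 0.24 under WB436B (adjusted p = 0.068). With equal totals MT-TG was called in both (-0.22, adjusted p = 0.035, and 0.31, adjusted p = 0.0060) and MT-TR under WB436B (0.29, adjusted p = 0.018), and in all MT-TG was called in 7 and 4 and MT-TR under WB436B in 4 of 22 alternatives. The direct comparison gave 0.52 (adjusted p = 0.0022) for MT-TG and 0.42 (adjusted p = 0.0094) for MT-TR, both higher under WB436B. MT-TG stood at 366 to 402 FPKM under WB436B against 250.0 to 286 FPKM after the siRNA. At the end of the map, MT-TE, for glutamate and on the opposite strand beside MT-ND6, fell by 0.54 after the siRNA (adjusted p = 0.0063) and by 0.33 under WB436B (adjusted p = 0.041), the latter lost in 10 of 22 alternatives. MT-TT, for threonine, fell by 0.20 under WB436B (adjusted p = 0.016), and MT-TP, for proline, rose by 0.17 after the siRNA (adjusted p = 0.015). Both of these calls were lost with median-of-ratios scaling (-0.04 and 0.10).

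**Figure D5:**
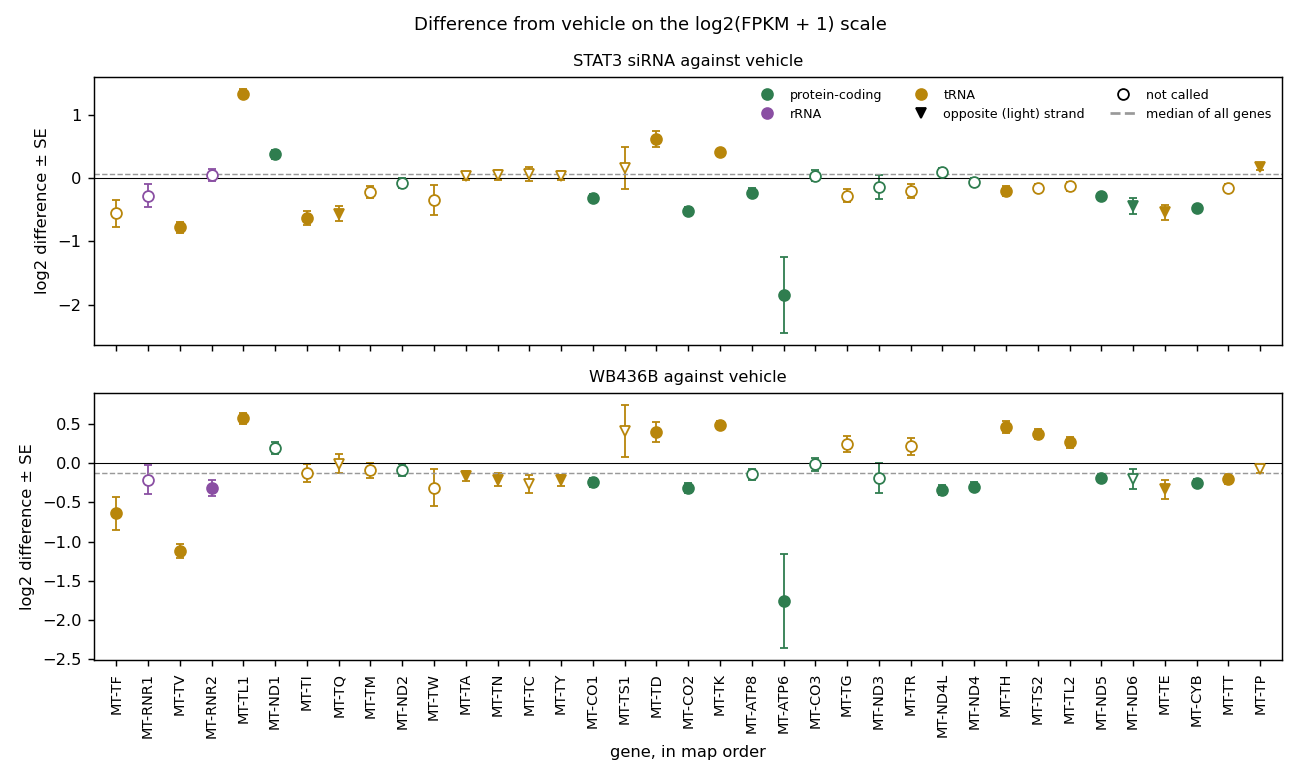
Difference from vehicle on the log2(FPKM + 1) scale (vertical axis, ± SE) of the 37 genes in map order, for STAT3 siRNA (upper panel) and WB436B (lower panel). Filled symbols passed the test, triangles are genes of the opposite strand, and the dashed line is the median of all tested genes. MT-TL1 stands at 1.34 and 0.57, MT-TV at -0.77 and -1.12, and MT-TH, MT-TS2 and MT-TL2 lie above 0 in the lower panel only.

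WB436B was also set directly against the siRNA, which compares the treatments as given. With no non-targeting siRNA and no treatment times stated, effects of siRNA delivery or of time cannot be told apart from those of STAT3 loss. Of the 37 genes 9 were higher and 10 lower under WB436B, against 20.0% of all tested genes higher and 44.1% lower. The median was 0.06 over the 37 genes and -0.18 over all genes. With median-of-ratios scaling, which brought the median of all genes to -0.00234, 18 were higher and 2 lower, MT-TL1 and MT-ND4L. Of all 12747 tested genes 4019 were higher and 3916 lower with that scaling. The protein-coding genes higher under WB436B without that scaling were MT-CO2 and MT-CYB, and those lower were MT-ND4L and MT-ND4. Among the tRNA genes 7 were higher, among them MT-TH (0.66), MT-TQ (0.55), MT-TG (0.52), MT-TS2 (0.52) and MT-TI (0.50), and 7 were lower, led by MT-TL1 (-0.77) and MT-TV (-0.34). Since both treatments share the vehicle libraries, their values against vehicle are not independent of each other.

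The nuclear genome holds old copies of mitochondrial sequence, to which fragments of the near-identical mitochondrial genes can be assigned. The table listed 405 such copies by symbol, and 6 passed the filter on low values. MTATP6P1 stood at 491 to 931 FPKM, MTCO1P12 at 226 to 313 FPKM and MTND2P28 at 189 to 273 FPKM, and the other 3 reached at most 5.18 FPKM. None of the 6 was called after the siRNA, where limma gave 1 higher and 1 lower at an unadjusted p below 0.05. The log2 differences of MTATP6P1 were -0.21 (adjusted p = 0.35) and -0.31 (adjusted p = 0.16). It did not show the split of MT-ATP6 within the vehicle group, at 795, 742 and 931 FPKM. Under WB436B MTCO1P12 (-0.29, adjusted p = 0.015) and MTND2P28 (-0.27, adjusted p = 0.014) were called. How much of the FPKM of a mitochondrial gene or of its copy came from the other was not tested.

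Among nuclear genes that transcribe, process and keep mitochondrial RNA, more rose than fell in both comparisons. The counts below stand against 29.8% of all tested genes that rose and 22.3% that fell after the siRNA, and 24.9 and 41.1% under WB436B. Of 10 transcription genes 6 rose and 1 fell after the siRNA (median log2 difference 0.26), and 5 rose and 2 fell under WB436B (median 0.30). The medians of all tested genes were 0.06 and -0.13. The split for these genes kept its direction with equal totals, median-of-ratios scaling and quantile normalization. POLRMT, the mitochondrial RNA polymerase, went from a vehicle level of 4.64 ± 0.318 FPKM (SD, n = 3) to 5.78 ± 0.279 and 5.83 ± 0.318 FPKM, with log2 differences of 0.26 (adjusted p = 0.0069) and 0.28 (adjusted p = 0.0041). TFAM, which bends and packages the promoter DNA, went from 8.84 ± 0.705 to 12.1 ± 0.939 and 13.8 ± 0.906 FPKM (0.41 and 0.58). TFB2M, which opens the promoter, went from 8.34 ± 0.330 to 10.2 ± 0.801 and 14.7 ± 0.331 FPKM (0.26 and 0.75), and was higher under WB436B than after the siRNA (0.50, adjusted p = 0.00011). MTERF3, a repressor of transcription initiation, rose by 0.55 and 0.72, and MRPL12, a ribosomal protein that also binds POLRMT, by 0.44 and 0.67. MTERF2 rose by 0.30 after the siRNA and fell by 0.35 under WB436B. MTERF1, at 1.18 to 3.11 FPKM, passed neither test.

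Of 9 genes for RNA stability and decay 7 rose after the siRNA and 6 under WB436B, and none fell, also at an unadjusted p in limma, with medians of 0.35 and 0.28. LRPPRC, which binds and protects mitochondrial mRNAs, went from 16.7 ± 0.458 FPKM to 28.0 ± 0.878 and 23.9 ± 0.974 FPKM (0.71 and 0.49). Its partner SLIRP went from 8.66 ± 0.840 to 18.5 ± 2.31 and 13.2 ± 0.946 FPKM (1.01 and 0.56). PNPT1, the exonuclease of the RNA-degrading complex, went from 8.70 ± 0.658 to 14.5 ± 0.832 and 24.1 ± 0.333 FPKM (0.68 and 1.37). The helicase of that complex, SUPV3L1, rose by 0.35 and 0.34, and NGRN, a factor for the large ribosomal RNA, rose by 0.74 and 0.21. Of 27 RNA processing genes 12 rose and none fell after the siRNA (median 0.25; also none at an unadjusted p, 1 with median-of-ratios scaling), and 13 rose and 2 fell under WB436B (median 0.29). ELAC2, which cuts tRNA 3′ ends, rose by 0.25 and 0.83. HSD17B10, a part of the enzyme that cuts their 5′ ends, rose by 0.67 and 0.69. NSUN4, MRM1 and MRM3, which modify the rRNAs, rose by 0.59, 0.50 and 0.49 after the siRNA. Under WB436B FASTKD3 rose by 0.71 and GTPBP3, a tRNA-modifying GTPase, fell by 0.70, after a rise of 0.45 with the siRNA.

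Of the nuclear regulators of mitochondrial genes 9 of 10 were tested, of which 2 rose and 2 fell after the siRNA and 3 rose and 3 fell under WB436B, near the shares of all genes. PPARGC1A, the coactivator PGC-1α, was under the filter, at means of 0.0218, 0.0892 and 0.00480 FPKM. Its relative PPARGC1B fell under WB436B (-1.35), as did SP1, a general promoter factor (-1.81), and PPRC1, another coactivator of that family, rose (0.47 after the siRNA and 0.91 under WB436B). GABPB1 rose by 0.56 and 0.47, YY1 fell by 0.52 after the siRNA, and SP1 fell by 0.33 there. Of 17 genes for DNA maintenance 7 rose and 2 fell after the siRNA, and 8 rose and 5 fell under WB436B. TYMP, which degrades thymidine, fell by 0.97 and 1.58, and SLC25A33, a pyrimidine nucleotide carrier, rose by 0.78 and 1.16. DNA2, a nuclease, and TOP3A, a topoisomerase, rose by 0.77 and 0.39 after the siRNA. TK2 and RRM2B, which make precursors of mitochondrial DNA, fell by 0.77 and 0.75 under WB436B. The amount of mitochondrial DNA was not analysed here.

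Of 17 assembly factors, chaperones and proteases 11 rose and 2 fell after the siRNA, and 9 rose and 1 fell under WB436B. The chaperone HSPD1 went from 94.6 ± 6.42 FPKM to 131 ± 6.58 and 249 ± 0.642 FPKM (0.47 and 1.39), and its partner HSPE1 rose by 0.59 and 0.78. LONP1, a matrix protease, rose by 0.67 after the siRNA, HSPA9, a chaperone of protein import, by 0.66 and 0.59, and NDUFAF2 and NDUFAF4, assembly factors of complex I, by 1.12 and 1.09 under WB436B.

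The nuclear-encoded partners of the mitochondrial proteins, taken by symbol, mostly rose where they were called after the siRNA, as did all tested genes (29.8% rose and 22.3% fell). Of 38 tested complex I genes 15 rose and 1 fell, of 10 complex III genes 6 rose and none fell, of 12 complex IV genes 5 rose and 1 fell, and of 16 complex V genes 4 rose and 2 fell. The medians were 0.27, 0.36, 0.14 and 0.13. The mitochondrial members of complex I had a median of -0.08 and a range of -0.44 to 0.38, and MT-CYB of complex III had -0.48. In complex IV MT-CO1, MT-CO2 and MT-CO3 had -0.31, -0.51 and 0.04, and in complex V MT-ATP8 had -0.23. With median-of-ratios scaling the split for complexes IV and V was 1 higher and 1 lower, and 2 higher and 3 lower. Of all 12747 tested genes 3092 were then higher and 3275 lower. Quantile normalization gave 6 and 1, and 3 and 2, against 3662 and 3076 of all tested genes. NDUFA13 (1.07), NDUFB10 (0.67), CYC1, which encodes cytochrome c1 (0.52), UQCRH (0.51) and COX5B (0.35) were among those that rose, and ATP5C1 (-0.52) and COX6B2, a testis-type subunit (-1.61), among those that fell. Under WB436B 2 rose and 8 fell in complex I, and none rose and 3, 5 and 3 fell in complexes III, IV and V. With median-of-ratios scaling these became 8 higher and 4 lower, 2 and 1, 0 and 1, and 5 and 0, so that the direction for complexes I, III and V turned. Of all tested genes 4219 were then higher and 4228 lower. Quantile normalization kept the direction, with 1 higher and 10 lower, 0 and 3, 0 and 8, and 0 and 3. Over all tested genes it gave 4133 higher and 3660 lower. Between the treatments 1 complex I gene was higher and 26 were lower under WB436B, none was higher and 8 were lower in complex III, none and 7 in complex IV, and 2 and 5 in complex V, against 20.0 and 44.1% of all genes. With median-of-ratios scaling these became 3 and 12, 2 and 4, 0 and 1, and 4 and 1, so that complex V turned direction. Over all tested genes 4019 were then higher and 3916 lower. With quantile normalization the direction was kept, at 1 and 24, 0 and 9, 1 and 7, and 1 and 9. All tested genes then gave 3583 higher and 3585 lower.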

How the data were processed

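RNA from 9 BxPC3 libraries, 3 per group, was extracted as total RNA with an RNeasy kit and prepared with a standard Illumina protocol, per the labels' protocols. The authors deposited a table of FPKM per gene identifier. Bowtie 0.12.2 and the mouse build mm8 stand in the submitters' processing notes, although the identifiers are human, so no coordinates are given. The program that computed FPKM, selection or depletion of RNA, strandedness, and the treatment of fragments that match several genes are not stated in the sources used here. Gene order, strand, length and sequence came from GENCODE 29, matched by identifier for all 37 genes.

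FPKM as deposited was tested as log2(FPKM + 1), pseudocount 1, with limma 3.58.1 in R 4.3.3, a variance trend and all 9 libraries in a single fit without a replicate block. Genes needed 1 FPKM in 3 libraries. Fold changes on this scale understate changes of low genes. Depth was estimated from the commonest low value of FPKM times length, at 14900000 to 47200000 fragments. Class shares were compared by two-sided exact permutation tests (SciPy 1.17.1). The script was tested on simulated data. Alternatives were other pseudocounts, filters, scalings, fits and each library left out. All 37 genes are named; from each list of nuclear genes those named are among the 4 called genes with the largest change in either comparison, or fewer where fewer passed, along with the core factors of transcription and stability. The genes, lists and tests were chosen with earlier results of these data known.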

Additional observations from a re-analysis of the deposited data

How the results depend on the processing

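The direction of the WB436B results depended on scaling. Median-of-ratios scaling moved the count of mitochondrial genes that fell against vehicle from 15 to 3. That of all 12747 tested genes moved from 5234 to 4228. Over all genes above 0 in every library, a version tried first and kept as an alternative after seeing the data, it gave 12 higher and 1 lower. Of all tested genes 5122 were higher and 3577 lower with that version. Against the siRNA the counts of 9 higher and 10 lower became 18 and 2, or 19 and 1 over all genes. All tested genes went from 2554 higher and 5621 lower to 4019 and 3916, or 4842 and 3277. Quantile normalization gave 9 lower under WB436B, where 3660 of all 12747 tested genes fell. An adjusted p below 0.01 in limma gave 7, against 4292 of all genes. At that threshold 5 were lower against the siRNA, against 4530 of all genes. With no filter, 5 fell after the siRNA, 2 under WB436B, and 4 were lower between the treatments. Of the 36920 genes then tested, 3359, 7394 and 7394 were lower. Fitting both compared groups alone gave 9 lower under WB436B, against 5138 of all 12747 tested genes. The cause of these shifts was not tested.

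Under quantile normalization differences under WB436B that were called before or after it changed sign in MT-RNR2 (to 0.043), MT-CO3 (0.52, then called), MT-ND4L (0.23), MT-ND5 (0.18) and MT-CYB (0.27), and uncalled ones in MT-ND2, MT-ATP8 and MT-TQ. Quantile results of all but MT-TQ here follow ranks among or near the highest genes, as described above. Between the treatments median-of-ratios scaling made MT-ND2 0.22, MT-TA 0.025 and MT-TT 0.19, and quantile normalization made MT-ND2 0.12. Of 111 gene comparisons, 27 that were not called changed sign under some of 22 settings without being called. Taken per FPKM outside the mitochondrial genome, the rRNA and tRNA differences after the siRNA were -0.107 and -0.0813.

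Leaving out each library in turn gave 4 to 5 higher and 8 to 13 lower after the siRNA, 5 to 8 and 8 to 14 under WB436B (9 without vehicle replicate 3, 8 without WB436B replicate 3), and 8 to 11 and 7 to 11 between the treatments. Of all genes 4777 of 12446 fell under WB436B without vehicle replicate 3, and 5022 of 12691 without WB436B replicate 3. In percentage points, the share differences ranged from -5.97 to -4.38 (mRNA), -0.0102 to 0.160 (rRNA) and 0.105 to 0.184 (tRNA) after the siRNA, from -5.98 to -4.39, -0.289 to -0.119 and -0.0839 to 0.0562 under WB436B, and from -0.212 to 0.123, -0.331 to -0.234 and -0.220 to -0.0796 between the treatments. Calls held under every alternative for 8 of 17 genes after the siRNA, 5 of 21 under WB436B and 8 of 19 between the treatments. Correlations of deviations between same-numbered libraries were -0.0847 to 0.158 over 9 pairs and over 0.1 in 2. Those of vehicle and siRNA were positive for all 3 numbers (0.0419, 0.119 and 0.158) and each library correlated best with its own number there, a hint from the data and not from the design, since 1 was not over 0.1. With a replicate block 5 rose and 10 fell after the siRNA, 6 and 12 under WB436B, and 8 were higher and 9 lower between the treatments. Of all 12747 tested genes the counts were 3608 and 2704, 3057 and 5095, and 2475 and 5484. The block with median-of-ratios scaling gave 4 and 18, 9 and 2, and 18 and 2, with MT-ND2 at 0.22, MT-TA at 0.025 and MT-TT at 0.19 between the treatments. Counts over all genes were then 2898 and 3118, 4130 and 4138, and 3893 and 3809. Depth limits MT-TS1 most, with an estimated 1.37 fragments in its poorest library.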
